A study of Mus musculus with 60 samples.

Results

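The comparison described here sets inguinal fat of vehicle-treated GiprSyn-/- mice against inguinal fat of vehicle-treated Giprfl/fl mice. Libraries were chosen by genotype, tissue and treatment alone. They are 5 knockout and 5 floxed libraries, 10 of the 60 libraries in the series, and they share a table of 15 libraries with 5 libraries from Giprfl/fl mice given mGIPR-Ab/P1, a conjugate of peptide and antibody. Of 54343 gene symbols in the table, 13604 reached 1 FPKM in at least 5 of the 15 libraries and were tested. FPKM is a fragment count scaled to transcript length and to library size. Mice of every group were DIO mice, made obese by diet, and both groups compared here received vehicle. The controls carry floxed Gipr, as the knockouts did before deletion, and so differ from them in the deletion and in whatever drives it. Polyadenylated RNA of whole tissue was sequenced, and the labels call the libraries biological replicates without tying them to animals.

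GIPR is the receptor for glucose-dependent insulinotropic polypeptide, a gut hormone released after a meal. It acts on pancreatic beta cells and is also found in the brain and in adipose tissue. In names of this form Syn commonly stands for the synapsin promoter, active in neurons, but the labels do not give the driver. Inguinal fat is a subcutaneous white depot that stores triglyceride, secretes hormones such as leptin, and encloses a lymph node. Its gene expression in obesity follows adipocyte lipid handling, the macrophages that gather around adipocytes, and the matrix and vessels between them.

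Gipr itself was read in fat at 3.20, 4.44, 5.37, 4.43 and 2.57 FPKM in knockout replicates 1 to 5 and 7.13, 5.02, 6.03, 7.46 and 5.12 FPKM in floxed replicates 1 to 5. The groups overlapped, with knockout replicate 3 above floxed replicates 2 and 5. The difference on the log2(FPKM + 1) scale used for all fold changes here, knockout minus floxed, was -0.53 ± 0.18 (SE, adjusted p = 0.0646), which did not pass the threshold of 0.05 in limma with Benjamini-Hochberg adjustment. It was -0.31 ± 0.16 (SE, adjusted p = 0.283) without the 3 libraries with most B cell RNA described below and -0.16 ± 0.19 (adjusted p = 0.755) with the B cell score as a term, and it passed without knockout replicate 3 (-0.63, adjusted p = 0.0346). The fold change understates differences of genes at low FPKM, and ± after a fold change is its standard error. Glp1r, the receptor for glucagon-like peptide 1, averaged 0.0237 ± 0.0375 FPKM in knockout and 0.00334 ± 0.00522 FPKM in floxed fat (mean ± SD, n = 5 in each group, as for all means here), and Syn1, which encodes synapsin 1, averaged 0.286 ± 0.0849 and 0.385 ± 0.109 FPKM. Both were below the filter and were not tested. Dpp4, the peptidase that inactivates incretin hormones and a marker of adipocyte progenitors, was at 18.5, 16.2, 12.3, 13.2 and 17.4 FPKM in knockout replicates 1 to 5 and 5.83, 9.75, 8.87, 8.83 and 8.67 FPKM in floxed replicates 1 to 5. Every knockout library was above every floxed library, and Dpp4 rose by 0.82 ± 0.19 (SE, adjusted p = 0.0135). Its call was lost without those 3 libraries (adjusted p = 0.062) and with the B cell score as a term (0.219).

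Estimated depth was 30.05 to 64.4 M fragments in knockout and 30.5 to 39.03 M fragments in floxed libraries (M, a factor of 1e6; knockout replicate 5 was the deepest), and Pearson's r between replicates over tested genes was 0.899 to 0.981 among knockouts and 0.951 to 0.991 among floxed libraries. Adipocyte markers were high in every library. A score of 10 white adipocyte markers averaged 9.80 in knockout and 9.61 in floxed libraries (exact permutation test, two-sided, p = 0.325, so no difference was shown), and Adipoq, the adipocyte hormone adiponectin, named after its values were seen, averaged 1857 ± 494 against 1799 ± 204 FPKM. Skeletal muscle markers summed to between 37.5 and 239 FPKM in knockout and between 53.3 and 690.5 FPKM in floxed libraries, and markers of mammary and skin epithelium to between 4.27 and 89.7 FPKM and between 8.49 and 193.6 FPKM. The smallest two-sided p that an exact test of 5 against 5 libraries can give is 0.00794. All p-values measure the spread between these libraries, which may be in part technical.

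Markers of lymph node cells varied widely among the libraries of both groups. The mean log2(FPKM + 1) of 11 B cell markers was 5.92, 3.55, 3.23, 3.74 and 5.91 in knockout replicates 1 to 5 and 0.86, 4.25, 1.62, 0.87 and 1.25 in floxed replicates 1 to 5. Knockout replicates 1 and 5 stood highest, floxed replicate 2 lay within the knockout range, and the other 4 floxed libraries were below every knockout. The score was higher in knockouts by 2.70 (exact permutation test, two-sided, p = 0.0317, adjusted over 18 marker scores p = 0.0519). T cell markers (score 3.71 against 1.95) and lymph node stroma markers (3.31 against 1.47) gave the same exact p of 0.0317. Of the 18 marker scores, those that passed adjustment were higher in knockouts for plasma cells (4.54 against 3.44), Schwann cells (2.97 against 2.47) and adipocyte progenitors (5.13 against 4.93), all at an adjusted exact p of 0.0357, and for lymphatic endothelium (3.11 against 2.23), at 0.0476. By limma 1 of 5 tested lymphatic markers rose, against 6.61% of all genes, and Ccl21a of that list is also a lymph node stroma marker. The lymphatic list's median log2 difference was 0.92, and 0.09 with the B cell score as a term in the fit. Lower in knockouts were lipid-associated macrophages, described below, and mural cells (4.45 against 4.83, adjusted exact p = 0.0476). In bulk tissue, a difference in the number of cells of a type and a difference in RNA per cell cannot be told apart.

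**Figure D1:**
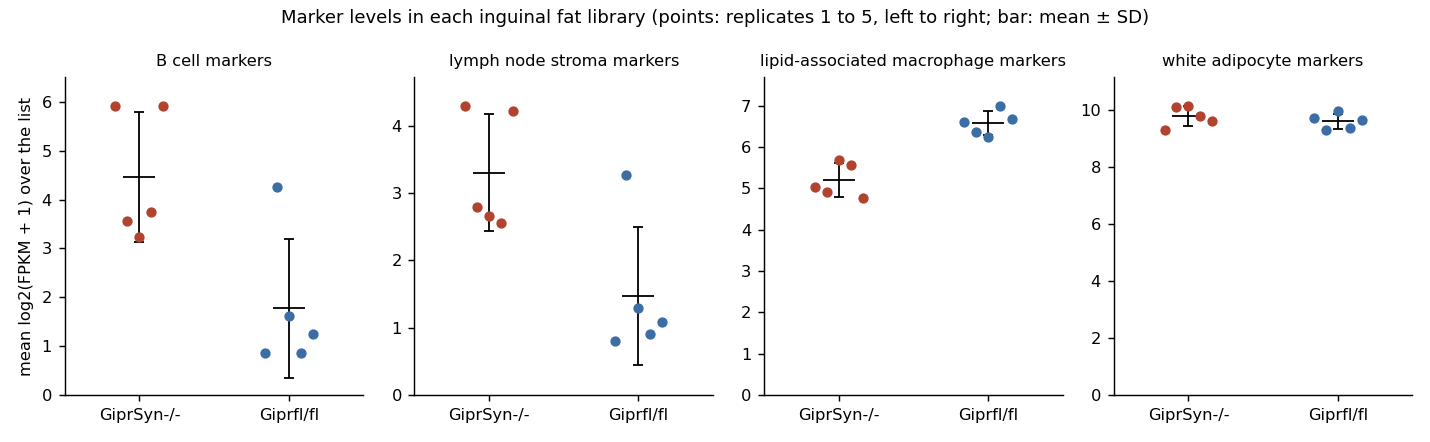
Mean log2(FPKM + 1) of 4 marker lists in each library, with knockout libraries in red and floxed libraries in blue; horizontal bars are means and vertical bars SD (n = 5). Knockout replicates 1 and 5 had the highest B cell scores (5.92 and 5.91), floxed replicate 2 (4.25) lay among the knockouts, and the lipid-associated macrophage scores of the groups did not overlap.

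Genes of lymphoid cells followed that score. Cd79a, a chain of the B cell receptor complex, was at 147, 39.05, 30.4, 32.3 and 209 FPKM in knockout replicates 1 to 5 and 1.95, 47.7, 6.51, 1.89 and 3.93 FPKM in floxed replicates 1 to 5. Knockout replicates 1 and 5 were the highest, and floxed replicate 2 exceeded knockout replicates 2, 3 and 4. Of 11 B cell markers tested, 7 rose, against 6.61% of all genes tested that rose, and the median log2 difference of the list was 2.81 against 0.09 over all genes. None of the 11 passed without the 3 libraries whose B cell score exceeded 5 (knockout replicates 1 and 5 and conjugate replicate 1, called B-rich below), where the median was 1.80. Those libraries were chosen by the score of these same markers, and none was a floxed vehicle library. A smaller difference in these markers was therefore set by the choice. Without any 1 of knockout replicates 1 or 5 or floxed replicates 1, 3, 4 or 5 none passed either, without knockout replicate 2 there were 3, and without knockout replicate 3 or floxed replicate 2 all 11 did. By limma no T cell marker of 14 passed, 13 of them had an unadjusted p under 0.05, and the median was 1.84. Without floxed replicate 2, 9 of the 14 passed, and without knockout replicate 3 or 4 there was 1. Jchain, which joins antibody chains in plasma cells, averaged 72 ± 69.1 against 6.56 ± 4.95 FPKM and rose by 3.04 ± 0.70 (SE, adjusted p = 0.0148). Cxcl13, the chemokine that draws B cells into follicles, rose by 2.83 ± 0.72 (SE, adjusted p = 0.0221).

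Among the largest rises were Marco and Cd209b, known from macrophages. Marco, a scavenger receptor, was at 60.9, 16.9, 10.6, 8.14 and 70.4 FPKM in knockout replicates 1 to 5 and 1.76, 7.98, 2.89, 1.61 and 1.77 FPKM in floxed replicates 1 to 5, with no overlap, and rose by 2.71 ± 0.72 (SE, adjusted p = 0.0272). Cd209b, a lectin that binds carbohydrate, averaged 65.6 ± 53.6 against 11.7 ± 6.55 FPKM and rose by 2.16 ± 0.51 (SE, adjusted p = 0.0166). Timd4, a receptor for exposed phosphatidylserine on resident macrophages, averaged 30.02 ± 25.9 against 3.74 ± 3.69 FPKM, overlapped through knockout replicate 3 and floxed replicate 2, and rose by 2.59 ± 0.57 (SE, adjusted p = 0.012). The same libraries, knockout replicates 1 and 5, were highest for Marco, Cd209b and Timd4. Cd79a and Marco lost their calls without any 1 of knockout replicates 1 or 5 or floxed replicates 1, 3, 4 or 5 (adjusted p up to 0.0865 and 0.0692). Cxcl13 lost its call without any 1 of knockout replicates 1 or 5 or floxed replicates 1, 3 or 5 (up to 0.0645), and Cd209b without floxed replicate 1 (0.0507). Without the B-rich libraries Jchain (0.098), Cxcl13 (0.0831) and Marco (0.108) did not pass, and with the B cell score as a term none of Jchain, Cxcl13, Marco, Cd209b and Timd4 did (adjusted p from 0.163 to 0.596). Whether lymph node content has a part in the other differences was not tested as a cause. Counts without the 3 B-rich libraries and with that score as a term in the fit stand beside most of the gene groups below. The score was itself higher in knockouts, so the term shares part of the group difference and can widen its SE.

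Across the transcriptome, 1670 of 13604 genes passed (12.3%), 899 higher in knockouts (6.61%) and 771 lower (5.67%). Of these 890 differed by at least 1.5-fold (6.54%). The groups did not overlap for 1492 genes (11%), 849 higher (6.24%) and 643 lower (4.73%) in knockouts. Without the 3 B-rich libraries, 755 genes passed, 388 higher and 367 lower, and 651 of the 755 were among the 1670 and in the same direction. With the B cell score as a term, 251 passed, 187 higher and 64 lower, and 203 of the 251 were among the 1670. List counts given for these 2 fits are to be read against these smaller totals of the same 13604 genes. Scaling by median of ratios, which moved the median gene from 0.09 to -0.01, gave 560 higher and 1050 lower, and quantile normalization gave 462 higher and 877 lower. Leaving out 1 library gave between 712 genes (without floxed replicate 1) and 2117 genes (without knockout replicate 3), and the other libraries whose loss lowered the count by over 1.5 times were knockout replicates 1 (939) and 5 (968) and floxed replicates 3 (1063), 4 (945) and 5 (891).

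**Figure D2:**
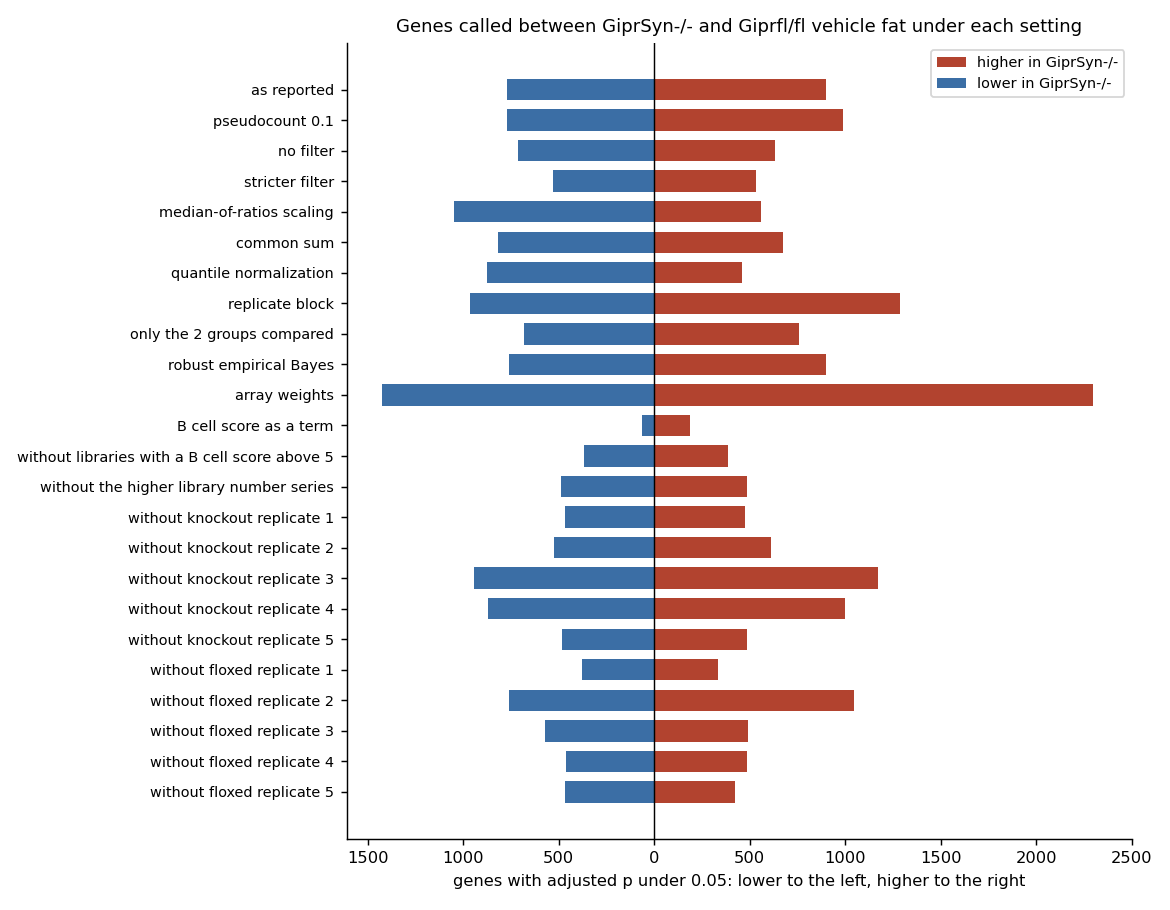
Number of genes with adjusted p under 0.05 in each setting, those lower in knockout fat to the left and those higher to the right. The count was 1670 as reported, 251 with the B cell score as a term and 755 without the 3 B-rich libraries.

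Adipokine genes passed in both directions. Lep, which encodes leptin and rises with fat mass, was at 367, 363, 794, 840.01 and 232 FPKM in knockout replicates 1 to 5 and 1678, 1352, 1461, 1576 and 1245 FPKM in floxed replicates 1 to 5. Every knockout library was below every floxed library, and knockout replicates 1, 2 and 5 were the lowest. Lep fell, with a log2 difference of -1.66 ± 0.37 (SE, adjusted p = 0.0121). Cfd, the complement protease adipsin, was at 1273, 5864, 2877, 1089 and 5687 FPKM in knockout replicates 1 to 5 and 441, 183, 813, 209 and 428 FPKM in floxed replicates 1 to 5. All knockouts exceeded all floxed libraries and varied among themselves over a wide range. Cfd rose by 2.89 ± 0.59 (SE, adjusted p = 0.00851). Nnat, an imprinted gene that encodes the membrane protein neuronatin, was at 969, 1708, 1656, 1486 and 1579.7 FPKM in knockout replicates 1 to 5 and 605, 366, 733, 447 and 553 FPKM in floxed replicates 1 to 5. All knockouts were above all floxed libraries, and Nnat rose by 1.46 ± 0.22 (SE, adjusted p = 0.00212). Of 10 genes tested on the adipokine list, which also holds Nnat with its membrane protein, 2 rose and 2 fell, against 6.61% and 5.67% of all genes. The 2 rises passed also without the B-rich libraries (adjusted p = 0.0284 for Cfd and 0.0063 for Nnat), and Lep did too (0.028). With the B cell score as a term Nnat kept its call (0.00543), while Cfd (0.0725) and Lep (0.263) did not. The estimate with the term was 2.93 ± 0.79 for Cfd, with a larger SE than the 0.59 above, and -0.89 ± 0.38 for Lep.

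Genes that promote lipolysis and genes that restrain it rose in knockouts. Adrb3, the adrenergic receptor through which noradrenaline starts lipolysis in mouse adipocytes, was at 51.7, 136, 70.3, 41.4 and 95.1 FPKM in knockout replicates 1 to 5 and 10.98, 15.4, 18.2, 4.01 and 10.5 FPKM in floxed replicates 1 to 5. The lowest knockout value was above the highest floxed value, and knockout replicate 2 was the highest. Adrb3 rose by 2.65 ± 0.46 (SE, adjusted p = 0.0039). Hcar1, a lactate receptor that restrains lipolysis, averaged 28.5 ± 6.87 against 16.4 ± 2.57 FPKM and rose by 0.74 ± 0.17 (SE, adjusted p = 0.0133). Pde3b, the phosphodiesterase by which insulin restrains lipolysis, averaged 41.8 ± 6.95 against 28.8 ± 3.21 FPKM and rose by 0.51 ± 0.12 (SE, adjusted p = 0.0166). Of 15 genes tested on this list 4 rose (6.61% of all genes did), none fell, and the list's median of 0.19 compared with 0.09 over all genes. Pde3b lost its call without floxed replicate 1 (0.0504). Without the B-rich libraries, 3 rose, with Pde3b at 0.072, and with the score as a term none did (adjusted p = 0.0748 for Adrb3). The estimates with the term were 2.10 ± 0.57 for Adrb3 and 0.82 ± 0.22 for Hcar1.

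Glyceroneogenic and antioxidant genes showed single large changes. Pck1, the enzyme that supplies glycerol phosphate from pyruvate in adipocytes, was at 508, 934, 824, 743 and 693 FPKM in knockout replicates 1 to 5 and 249, 173, 466, 185 and 256 FPKM in floxed replicates 1 to 5. The groups did not overlap, and floxed replicate 3 was nearest to the knockouts. Pck1 rose by 1.54 ± 0.27 (SE, adjusted p = 0.0042), and passed with the B cell score as a term (0.0275). Pcx, pyruvate carboxylase, changed the other way, at 122 ± 36.5 against 204 ± 38.1 FPKM and by -0.77 ± 0.18 (SE, adjusted p = 0.0161). Of 16 genes of glucose uptake and glyceroneogenesis, 4 rose and 2 fell, against 6.61% and 5.67% of all genes. Median-of-ratios scaling gave 2 and 3. There were 3 rises and no fall without the B-rich libraries, and 1 rise and no fall with the B cell score as a term. Pcx did not pass in either fit (0.102 and 0.276). The number that rose was 1 without any 1 of knockout replicates 2 or 5 or floxed replicates 1, 4 or 5 and 2 without floxed replicate 3. The number that fell was 1 without any 1 of knockout replicate 1 or floxed replicates 1, 3 or 5 and 4 without knockout replicate 3. Gpx3, a secreted glutathione peroxidase, was at 162, 364, 251, 187 and 287 FPKM in knockout replicates 1 to 5 and 96.1, 79.6, 66.4, 85.96 and 79.03 FPKM in floxed replicates 1 to 5. Every knockout library was above every floxed library, and the floxed libraries varied little. Gpx3 rose by 1.56 ± 0.22 (SE, adjusted p = 0.00141) and passed in every setting tried. Sod1, the cytosolic superoxide dismutase, averaged 553 ± 62.4 against 346 ± 16.3 FPKM and rose by 0.67 ± 0.16 (SE, adjusted p = 0.0184). Sod1 did not pass under median-of-ratios scaling (0.0563) or with the B cell score as a term (0.0734). With that term its estimate was 0.78 ± 0.21. Of 16 antioxidant genes 3 rose and 2 fell, against the same 6.61% and 5.67% of all genes. Under median-of-ratios scaling 1 rose and 4 fell. Without the B-rich libraries 3 rose and 1 fell, and with the score as a term 2 rose and none fell. The number that fell was 4 without knockout replicate 3 or 4 and 1 without any other library.

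Among the lipid pathways listed, sterol synthesis had the most genes lower in knockout fat. Of 23 tested genes of cholesterol synthesis and uptake, 13 fell and 1 rose, against 5.67% and 6.61% of all genes, and the median was -0.64 against 0.09. Lss, which closes squalene epoxide into lanosterol, was at 4.80, 5.12, 6.48, 6.24 and 4.20 FPKM in knockout replicates 1 to 5 and 15.3, 16.03, 12.6, 12.9 and 13.3 FPKM in floxed replicates 1 to 5. The groups did not overlap, and each varied little. Lss fell, with a log2 difference of -1.25 ± 0.18 (SE, adjusted p = 0.00149). Nsdhl, a sterol dehydrogenase, averaged 16.9 ± 6.73 against 41.1 ± 7.02 FPKM (log2 difference -1.30 ± 0.28, adjusted p = 0.00987), and Insig1, the endoplasmic reticulum anchor of the SREBP escort protein, averaged 65.1 ± 24.4 against 146 ± 13.9 FPKM (log2 difference -1.22 ± 0.21, adjusted p = 0.00404). Hmgcs1, which makes the precursor of mevalonate and was also chosen after its values were seen, averaged 81.6 ± 30.8 against 157 ± 27.3 FPKM (log2 difference -1.01 ± 0.25, adjusted p = 0.0204). Without the B-rich libraries, 7 of 23 fell, where 367 of all 13604 genes did, and the median was -0.60. With the score as a term 1 fell, which was Lss (adjusted p = 0.0275), where 64 of all genes did, and the median was -0.52. Under median-of-ratios scaling 16 fell and none rose.

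Because so many genes of this pathway fell together, the bases just upstream of their starts are shown for 3 of them, as given by RefSeq in build GRCm38.p6. Transcription factors of the SREBP family bind sterol regulatory elements, and NF-Y, a common partner, binds CCAAT. Each sequence is the 250 bases before the annotated start, 5′ to 3′ on the gene's strand, and capitals mark matches to the sterol regulatory element TCACNCCAC or to CCAAT on either strand (ATTGG on the other). Hmgcs1 lies at chr13:119690101-119690350, plus strand, Lss at chr10:76531355-76531604, plus strand and Insig1 at chr5:28071162-28071411, plus strand.
Hmgcs1: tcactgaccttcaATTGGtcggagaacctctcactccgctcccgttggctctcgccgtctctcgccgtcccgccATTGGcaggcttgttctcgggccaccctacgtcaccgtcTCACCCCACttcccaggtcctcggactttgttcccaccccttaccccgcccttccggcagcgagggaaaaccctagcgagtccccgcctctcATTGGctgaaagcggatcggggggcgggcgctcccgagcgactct
Lss: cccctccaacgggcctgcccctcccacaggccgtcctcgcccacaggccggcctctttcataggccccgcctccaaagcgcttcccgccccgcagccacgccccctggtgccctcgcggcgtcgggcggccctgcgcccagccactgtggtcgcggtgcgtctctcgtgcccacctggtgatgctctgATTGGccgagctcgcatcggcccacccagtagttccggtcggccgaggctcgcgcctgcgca
Insig1: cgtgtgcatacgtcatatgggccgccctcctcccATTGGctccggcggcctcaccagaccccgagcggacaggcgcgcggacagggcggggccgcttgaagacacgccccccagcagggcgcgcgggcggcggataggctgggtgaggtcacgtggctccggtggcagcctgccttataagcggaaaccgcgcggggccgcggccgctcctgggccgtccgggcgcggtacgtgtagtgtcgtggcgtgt
The Hmgcs1 window held 1 match to TCACNCCAC and 3 to CCAAT, and the windows of Lss and Insig1 held 1 CCAAT match each. Of the 24 listed genes, 16 had a promoter in the RefSeq table, and all 16 held CCAAT on either strand, as did 37.5% of 27025 genes with a promoter and 40.3% of the 10211 of those tested in fat. Among the 16 were 10 genes that fell and 6 others. TCACNCCAC was in 1 of the 16 windows and in 1.23% of all genes. A match describes letters in the window and is not a binding site.

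Fatty acid synthesis showed falls and rises. Fasn, fatty acid synthase, was at 62.997, 94.1, 113, 56.3 and 78.2 FPKM in knockout replicates 1 to 5 and 248, 169.5, 245, 119 and 167 FPKM in floxed replicates 1 to 5. No knockout reached the lowest floxed library, and the log2 difference was -1.21 ± 0.30 (SE, adjusted p = 0.0188). Scd2, a desaturase, averaged 50.6 ± 16.04 against 138 ± 16.1 FPKM (log2 difference -1.48 ± 0.29, adjusted p = 0.00719), and Me1, malic enzyme, a source of NADPH, averaged 121 ± 43.4 against 273 ± 34.3 FPKM (log2 difference -1.24 ± 0.25, adjusted p = 0.00735). Slc25a1, the citrate carrier that exports the carbon for this pathway from mitochondria, averaged 114 ± 29.1 against 249 ± 36.3 FPKM (log2 difference -1.15 ± 0.18, adjusted p = 0.00256). In all 6 of 17 tested genes fell and 2 rose, against 5.67% and 6.61% of all genes, with a median of -0.19. Fasn lost its call without floxed replicate 1 (0.0562). Without the B-rich libraries, 4 fell and 3 rose, and with the score as a term none fell and 1 rose. The median was -0.21 in each of these fits. Estimates with the term were -1.34 ± 0.39 for Scd2, -1.17 ± 0.40 for Fasn, -0.88 ± 0.30 for Me1 and -0.79 ± 0.19 for Slc25a1, each with a larger SE than above.

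Several genes of fatty acid uptake and of storage fell. Fabp5, a fatty acid binding protein of adipocytes and macrophages, was at 181, 169, 240.2, 293 and 105 FPKM in knockout replicates 1 to 5 and 488, 457, 464, 549 and 492 FPKM in floxed replicates 1 to 5. Knockout replicate 5 was the lowest and no libraries overlapped. Its log2 difference was -1.39 ± 0.23 (SE, adjusted p = 0.00364). Vldlr, a receptor for triglyceride-rich lipoproteins, averaged 21.2 ± 6.78 against 43.8 ± 0.917 FPKM (log2 difference -1.07 ± 0.24, adjusted p = 0.0131). Angptl8, an insulin-induced regulator of lipoprotein lipase, averaged 2.20 ± 1.57 against 14.2 ± 7.15 FPKM (log2 difference -2.28 ± 0.45, adjusted p = 0.0071), and Lpl, the lipase itself, averaged 1693 ± 444 against 2759 ± 204 FPKM (log2 difference -0.74 ± 0.20, adjusted p = 0.0305). Of 12 genes of uptake, 6 fell and none rose (median -0.50, with 5.67% of all genes lower). Plin2, a lipid droplet coat protein, averaged 210.3 ± 66.2 against 472 ± 67.2 FPKM (log2 difference -1.21 ± 0.23, adjusted p = 0.00556), Dgat2, which makes triglyceride, averaged 456 ± 200.4 against 969 ± 147 FPKM (log2 difference -1.17 ± 0.29, adjusted p = 0.0185), and Mogat2, which acylates monoacylglycerol, averaged 1.56 ± 0.951 against 5.86 ± 1.28 FPKM (log2 difference -1.49 ± 0.35, adjusted p = 0.0166). Of 16 genes of triglyceride synthesis and storage, 4 fell and 1 rose (median -0.30, against the same 5.67% lower and 6.61% higher). Lpl lost its call without any library except knockout replicate 3 or 4 (adjusted p up to 0.0726), and Dgat2 without floxed replicate 1 (0.0548). Without the B-rich libraries, 3 uptake genes and 1 storage gene fell, and with the score as a term none did. With the term the medians were -0.23 for uptake and -0.12 for storage.

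**Figure D3:**
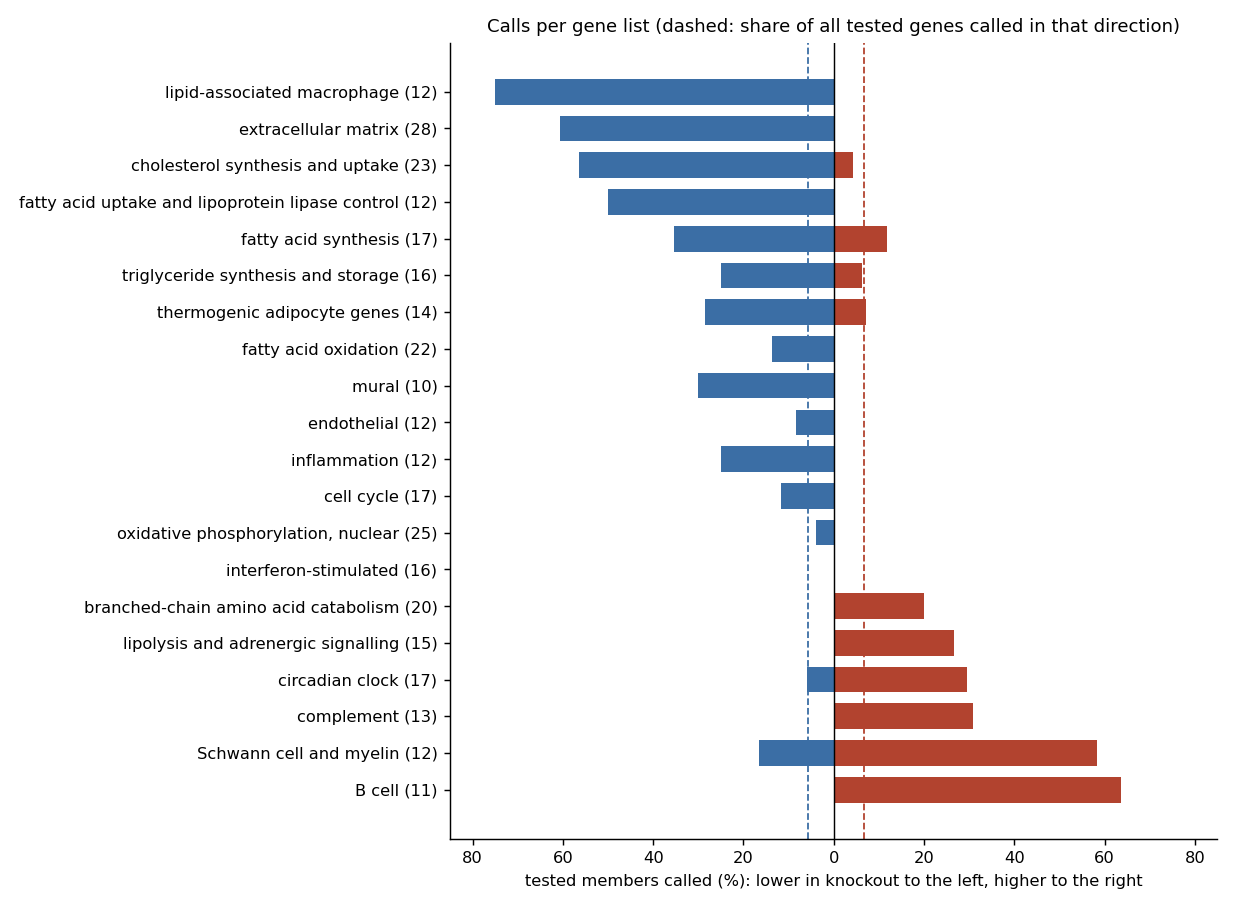
Percent of the tested members of 20 gene lists that were called lower (left) or higher (right) in knockout fat, with the number tested in brackets and, as dashed lines, the 5.67% and 6.61% of all genes called in each direction. Lipid-associated macrophage genes (9 of 12 lower) and matrix genes (17 of 28 lower) stood farthest to the left, B cell (7 of 11) and Schwann cell genes (7 of 12) farthest to the right.

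Some genes linked to thermogenic adipocytes fell, at low levels. Elovl3, an elongase induced in brown fat, was at 0.0229, 0, 0.218, 0.913 and 0 FPKM in knockout replicates 1 to 5 and 3.61, 1.62, 4.37, 2.78 and 3.24 FPKM in floxed replicates 1 to 5. Replicates 2 and 5 of the knockouts were listed at 0, and every floxed library was above every knockout. The log2 difference was -1.75 ± 0.22 (SE, adjusted p = 0.000761). Gk, glycerol kinase, averaged 2.46 ± 0.464 against 5.65 ± 1.12 FPKM (log2 difference -0.94 ± 0.13, adjusted p = 0.00118), Otop1, a proton channel, averaged 3.31 ± 0.659 against 7.15 ± 0.868 FPKM (log2 difference -0.93 ± 0.13, adjusted p = 0.00154), and Cpt1b, the muscle and brown fat carnitine palmitoyltransferase, averaged 1.18 ± 0.405 against 2.81 ± 0.379 FPKM (log2 difference -0.82 ± 0.13, adjusted p = 0.00322). Elovl3, Gk and Otop1 passed in every setting in which they were tested. Ucp1, which uncouples respiration and was named after its values were seen, averaged 0.366 ± 0.187 against 1.05 ± 0.679 FPKM and did not pass (log2 difference -0.53 ± 0.23, adjusted p = 0.131). Of 14 genes tested, 4 fell and 1 rose (none rose without any 1 of knockout replicates 1, 2 or 5 or floxed replicates 1, 3, 4 or 5), with a median of -0.49 and 5.67% of all genes lower. The number that fell was 4 without the B-rich libraries and 3 with the score as a term.

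Cpt1a, the carnitine palmitoyltransferase that admits fatty acids to mitochondria, averaged 38.8 ± 4.11 against 54.4 ± 1.96 FPKM with no overlap (log2 difference -0.48 ± 0.09, adjusted p = 0.00501). It was 1 of 3 genes of fatty acid oxidation that fell, of 22 tested, with 5.67% of all genes lower. With the score as a term none of the 22 passed, and 2 fell and 1 rose without the B-rich libraries. Cycs, cytochrome c, averaged 22.95 ± 2.50 against 31.5 ± 2.35 FPKM (log2 difference -0.44 ± 0.11, adjusted p = 0.0172) and was the 1 of 25 nuclear genes of oxidative phosphorylation that fell. None of 13 mitochondrially encoded genes passed by limma, with 1 at an unadjusted p under 0.05. Of 20 genes of branched-chain amino acid breakdown 4 rose and none fell, against 6.61% of all genes higher, with a median of 0.27 against 0.09. Ivd, isovaleryl-CoA dehydrogenase, averaged 69.3 ± 11.8 against 40.5 ± 6.22 FPKM (log2 difference 0.76 ± 0.14, adjusted p = 0.00551). Aldh6a1, a dehydrogenase of valine breakdown, averaged 136 ± 21.3 against 86.9 ± 7.74 FPKM (log2 difference 0.63 ± 0.12, adjusted p = 0.0065). The count was 2 without any 1 of knockout replicate 1 or floxed replicates 1, 3 or 5, 3 without the B-rich libraries and 2 with the score as a term.

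Lipid-associated macrophages are cells of obese fat that take up lipid and express the receptor TREM2. Trem2 was at 1.81, 2.80, 7.97, 4.39 and 3.13 FPKM in knockout replicates 1 to 5 and 25.7, 11.4, 17.1, 33.8 and 30.4 FPKM in floxed replicates 1 to 5. Every knockout library was below every floxed library, and the log2 difference was -2.32 ± 0.44 (SE, adjusted p = 0.00606). Mmp12, a macrophage elastase, was at 5.73, 1.55, 16.6, 16.1 and 1.53 FPKM in knockout replicates 1 to 5 and 51.2, 66.3, 37.05, 91.7 and 59.8 FPKM in floxed replicates 1 to 5. Knockout replicates 2 and 5 were near 1.5 FPKM and no libraries overlapped. Its log2 difference was -3.16 ± 0.62 (SE, adjusted p = 0.00653). Atp6v0d2, a subunit of the proton pump, averaged 2.24 ± 1.93 against 17.99 ± 8.35 FPKM (log2 difference -2.66 ± 0.50, adjusted p = 0.00551), and Gpnmb, a lysosomal glycoprotein, averaged 16.6 ± 6.59 against 57.7 ± 15.8 FPKM (log2 difference -1.76 ± 0.32, adjusted p = 0.00514). Of 12 genes on this list 9 fell (5.67% of all genes did) and none rose, and their median was -1.31. The list's score was 5.03, 4.91, 5.70, 5.56 and 4.78 in knockout replicates 1 to 5 and 6.60, 6.36, 6.23, 6.99 and 6.68 in floxed replicates 1 to 5 (exact permutation test, two-sided, p = 0.00794, the smallest possible, and 0.0357 adjusted over 18 scores). Without the B-rich libraries, 8 of 12 fell. With the score as a term none passed, and the median was -0.98. Lpl and Fabp5, which adipocytes also express, are among the 9.

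Other myeloid genes moved in both directions. Itgad, an integrin of macrophages in obese fat, averaged 3.996 ± 3.93 against 25.9 ± 4.28 FPKM (log2 difference -2.85 ± 0.55, adjusted p = 0.00636), and Ubd, a ubiquitin-like protein induced by cytokines, averaged 41.4 ± 24.8 against 186 ± 53.04 FPKM (log2 difference -2.30 ± 0.43, adjusted p = 0.00574). Of 12 resident macrophage genes, 3 rose and 2 fell, against 6.61% and 5.67% of all genes. The same 12 gave 3 rises and no fall without the B-rich libraries, and 1 rise and no fall with the score as a term. Lyve1, a hyaluronan receptor of lymphatic vessels and of a resident macrophage subset, was at 34.4, 29.9, 33.5, 25.1 and 36.4 FPKM in knockout replicates 1 to 5 and 11.7, 18.5, 17.5, 18.7 and 15.98 FPKM in floxed replicates 1 to 5. No floxed library reached the lowest knockout, and Lyve1 rose by 0.92 ± 0.14 (SE, adjusted p = 0.0025). Cd68, a lysosomal macrophage protein, averaged 56.97 ± 11.2 against 109.9 ± 38.9 FPKM (log2 difference -0.89 ± 0.24, adjusted p = 0.0262), and Adgre1, which encodes the F4/80 antigen, averaged 21.1 ± 2.13 against 36.3 ± 12.3 FPKM (log2 difference -0.70 ± 0.20, adjusted p = 0.0357). Cd68 lost its call without any 1 of knockout replicates 1 or 2 or floxed replicates 1, 4 or 5, and Adgre1 without any 1 of those or knockout replicate 5 or floxed replicate 2 (adjusted p up to 0.0662 and 0.0766). S100a8, a calcium-binding protein of neutrophils, was at 11.1, 2.90, 5.46, 8.96 and 4.69 FPKM in knockout replicates 1 to 5 and 16.3, 26.9, 21.4, 29.7 and 20.1 FPKM in floxed replicates 1 to 5. All knockouts were below all floxed libraries, and the log2 difference was -1.73 ± 0.27 (SE, adjusted p = 0.0026), past the threshold in every setting tried. It was the 1 fall on the list of 9 neutrophil and mast cell genes tested. Of the 9, 3 rose, the mast cell genes Mcpt4, Cpa3 and Cma1, against 6.61% of all genes. None of the 3 passed without the B-rich libraries or with the score as a term.

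Of 12 inflammation genes tested 3 fell and none rose, against 5.67% of all genes lower, and with the B cell score as a term none passed. Hp, the haemoglobin scavenger haptoglobin, averaged 1117 ± 371 against 2732 ± 734 FPKM (log2 difference -1.31 ± 0.26, adjusted p = 0.00717), Saa3, an acute-phase protein of fat, averaged 7.74 ± 6.996 against 29.3 ± 12.5 FPKM (log2 difference -2.19 ± 0.61, adjusted p = 0.0318), and Ccl2, a monocyte chemokine, averaged 7.70 ± 2.88 against 23.1 ± 5.64 FPKM (log2 difference -1.50 ± 0.36, adjusted p = 0.0175). Saa3 did not pass without the B-rich libraries (0.0988), where 2 of the list fell. Only Hp fell without floxed replicate 1, with Ccl2 then at 0.0517. Saa3 lost its call without any library except knockout replicates 3 and 4 and floxed replicate 2 (up to 0.0744). None of 16 interferon-stimulated genes passed by limma, with 2 at an unadjusted p under 0.05. Atf3, a stress-induced transcription factor, averaged 3.11 ± 1.22 against 11.5 ± 4.23 FPKM (log2 difference -1.59 ± 0.28, adjusted p = 0.00427), and Fos, an immediate early transcription factor, averaged 2.59 ± 1.004 against 6.56 ± 1.78 FPKM (log2 difference -1.08 ± 0.21, adjusted p = 0.00599). Of 11 immediate early genes 3 fell and 1, Zfp36, rose, the rise being lost under median-of-ratios scaling and without any library except knockout replicates 3 and 4. Of these genes 3 fell and none rose without the B-rich libraries, and none passed with the score as a term. Cdkn1a, the cell cycle inhibitor p21, averaged 15.7 ± 7.14 against 42.4 ± 4.70 FPKM (log2 difference -1.48 ± 0.34, adjusted p = 0.0139), while Cdk1, a kinase of mitosis, averaged 5.67 ± 1.45 against 11.6 ± 1.64 FPKM (log2 difference -0.93 ± 0.18, adjusted p = 0.00582). Cdkn1a did not pass without the B-rich libraries (0.0654) or with the score as a term (0.268), and Cdk1 passed in both. Of 17 cell cycle genes 2 fell, against 5.67% of all genes. Of the 17, 10 fell without the B-rich libraries, where 367 of all 13604 genes did, and 8 fell without knockout replicate 5, where 482 did. With the score as a term 2 fell, where 64 of all genes did. Only 1 fell without any 1 of the other 9 libraries except floxed replicate 2.

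**Figure D4:**
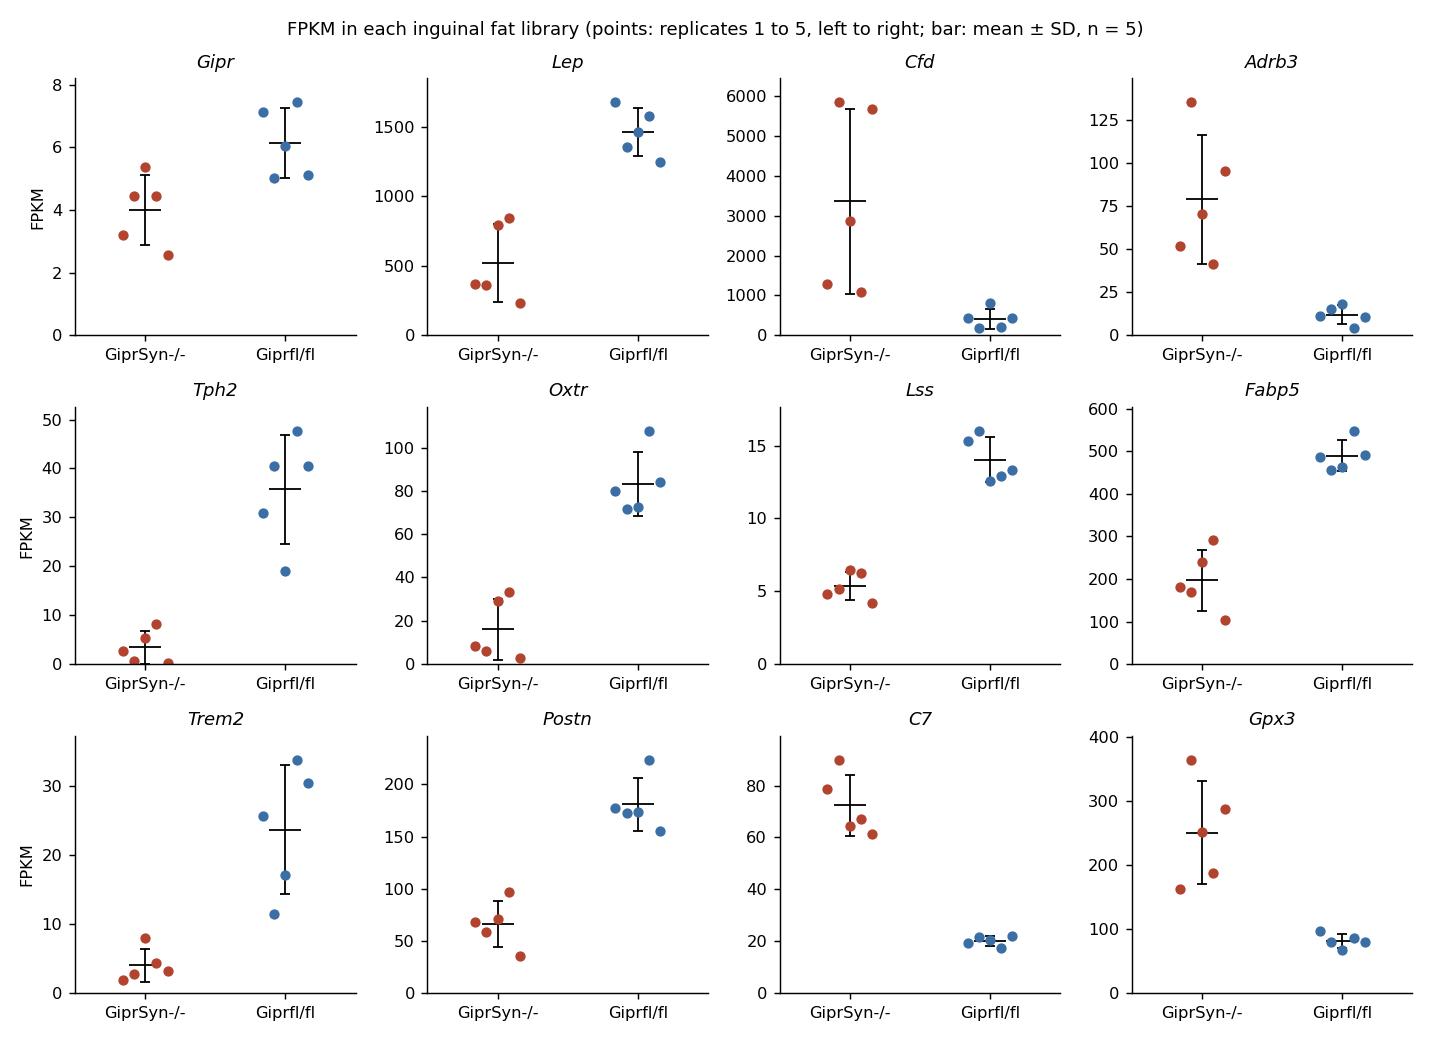
FPKM of 12 genes in each of the 5 knockout (red) and 5 floxed (blue) libraries, on linear axes that start at 0, with means and SD. Gipr overlapped between the groups, and the other 11 genes did not.

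Of 28 matrix genes, 17 fell and none rose, with 5.67% of all genes lower. Postn, which encodes periostin, a matrix protein of remodelling tissue, was at 68.4, 58.6, 71.4, 96.3 and 35.8 FPKM in knockout replicates 1 to 5 and 178, 173, 174, 224 and 156 FPKM in floxed replicates 1 to 5. Knockout replicate 5 was the lowest, with no overlap between groups. Its log2 difference was -1.50 ± 0.22 (SE, adjusted p = 0.00195), past the threshold in every setting tried. Col4a1 and Col4a2, the chains of basement membrane collagen that surrounds each adipocyte, averaged 166 ± 52.6 against 389.6 ± 89.5 FPKM and 111 ± 36.4 against 292 ± 71.2 FPKM, with log2 differences of -1.25 ± 0.24 (SE, adjusted p = 0.00646) and -1.42 ± 0.26 (SE, adjusted p = 0.00551). Lum, the collagen-binding proteoglycan lumican, averaged 39.7 ± 13.5 against 89.3 ± 23.7 FPKM (log2 difference -1.17 ± 0.26, adjusted p = 0.0133). The list's median was -0.88. The count of 17 was 10 without knockout replicate 1 or without floxed replicate 1, 8 without the B-rich libraries, and 1 with the score as a term, which was Postn. Among vessels, Cdh5, the endothelial cadherin, averaged 85.3 ± 19.3 against 139 ± 22.99 FPKM (log2 difference -0.71 ± 0.18, adjusted p = 0.0226) and was the 1 of 12 endothelial markers that fell (4 without knockout replicate 3, 2 without floxed replicate 2). Pdgfrb, the growth factor receptor of pericytes, averaged 23.97 ± 6.20 against 42.6 ± 7.35 FPKM (log2 difference -0.82 ± 0.18, adjusted p = 0.0133), 1 of 3 mural markers of 10 that fell. Cdh5 lost its call without any 1 of knockout replicates 1 or 5 or floxed replicates 1 or 3 (up to 0.0649), and 1 mural marker fell without floxed replicate 1. No endothelial or mural marker passed without the B-rich libraries or with the score as a term.

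Genes of myelinating Schwann cells, which wrap the axons of peripheral nerves, rose more often than they fell. Mbp, myelin basic protein, was at 40.3, 81.1, 83.1, 34.6 and 58.1 FPKM in knockout replicates 1 to 5 and 31.5, 20.7, 38.5, 21.4 and 32.6 FPKM in floxed replicates 1 to 5. The groups overlapped through knockout replicate 4 and floxed replicate 3, and Mbp rose by 0.97 ± 0.26 (SE, adjusted p = 0.027). Egr2, a transcription factor of myelination that is also an immediate early gene of other cells, went the other way, at 2.05 ± 0.616 against 3.62 ± 0.439 FPKM and by -0.62 ± 0.16 (SE, adjusted p = 0.0257). Of 12 genes tested, 7 rose and 2, Egr2 and S100b, fell, with a median of 0.75 against 0.09 and 6.61% of all genes higher. The number that rose was 4 without any 1 of knockout replicates 2 or 5 or floxed replicates 1 or 4, 4 without the B-rich libraries, and 2 with the score as a term. Mbp lost its call without any 1 of the same 4 libraries (up to 0.0698) and Egr2 without knockout replicate 2 or floxed replicate 1, 4 or 5 (up to 0.0675). Of 13 sympathetic and neuronal genes 2 reached the filter, and neither passed by limma (0 at an unadjusted p under 0.05).

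Complement genes held single changes of high precision, and clock counts depended on single libraries. C7, a component of the membrane attack complex, was at 78.8, 90.04, 64.4, 67.1 and 61.5 FPKM in knockout replicates 1 to 5 and 19.2, 21.5, 20.5, 17.3 and 22.1 FPKM in floxed replicates 1 to 5. The groups were far apart and each was tight. C7 rose by 1.79 ± 0.18 (SE, adjusted p = 0.00024). C2, a serine protease of the classical pathway, was at 59.5, 73.3, 58.3, 65.6 and 65.8 FPKM in knockout replicates 1 to 5 and 19.2, 20.2, 21.6, 23.1 and 20.4 FPKM in floxed replicates 1 to 5. Its groups were as clearly separate, and C2 rose by 1.58 ± 0.15 (SE, adjusted p = 0.00012). C1ra, a protease of the first component, averaged 84.7 ± 4.21 against 57.5 ± 10.98 FPKM and rose by 0.57 ± 0.11 (SE, adjusted p = 0.00748). Of 13 complement genes 4 rose (against 6.61% of all genes) and none fell, and 3 rose both without the B-rich libraries and with that score as a term. Of 17 clock genes 5 rose and 1 fell, against 6.61% and 5.67% of all genes. There were 3 rises and 1 fall both without the B-rich libraries and with the score as a term, where 388 and 187 of all 13604 genes rose. The number that rose was 1 under median-of-ratios scaling and also without any 1 of knockout replicates 2, 4 or 5 or floxed replicates 1 or 3, 2 without floxed replicate 2 or 4, and 3 without knockout replicate 3.

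Several of the largest falls lay outside those lists. Tph2, tryptophan hydroxylase, known as the first enzyme of serotonin synthesis in neurons, was at 2.65, 0.679, 5.36, 8.24 and 0.149 FPKM in knockout replicates 1 to 5 and 30.8, 40.5, 19.05, 47.7 and 40.5 FPKM in floxed replicates 1 to 5. Knockout replicates 2 and 5 were below 1 FPKM, and the lowest floxed library was above the highest knockout. Its log2 difference was -3.40 ± 0.60 (SE, adjusted p = 0.00428). Oxtr, the oxytocin receptor, was at 8.42, 6.23, 29.3, 33.2 and 2.83 FPKM in knockout replicates 1 to 5 and 80.2, 71.7, 72.7, 108 and 84.1 FPKM in floxed replicates 1 to 5. Knockout replicates 3 and 4 were the nearest to the floxed range, without reaching it. Its log2 difference was -2.77 ± 0.58 (SE, adjusted p = 0.0094). Lipf, a lipase known from the stomach, averaged 4.56 ± 4.03 against 28.96 ± 6.24 FPKM (log2 difference -2.79 ± 0.57, adjusted p = 0.00833), and Tfr2, a transferrin receptor known from liver and erythroid cells, averaged 1.90 ± 1.20 against 12.9 ± 4.36 FPKM (log2 difference -2.30 ± 0.36, adjusted p = 0.00282). For Tph2, Oxtr, Lipf and Tfr2 the call held in each fit without 1 library and without the B-rich libraries. It ended with the score as a term (adjusted p = 0.0803, 0.206, 0.169 and 0.0567), where the log2 differences were -2.74 ± 0.76, -1.67 ± 0.64, -1.89 ± 0.67 and -1.74 ± 0.43.

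Among the largest rises were enzymes of drug and steroid metabolism. Sult1e1, the estrogen sulfotransferase, was at 14.7, 17.2, 21.8, 16.5 and 17.1 FPKM in knockout replicates 1 to 5 and 3.66, 1.97, 2.61, 5.46 and 3.51 FPKM in floxed replicates 1 to 5. The groups were far apart, with no overlap. Sult1e1 rose by 2.10 ± 0.23 (SE, adjusted p = 0.000342). Cyp2f2, a cytochrome P450 known from airway cells, averaged 15.6 ± 6.73 against 2.02 ± 0.502 FPKM and rose by 2.39 ± 0.36 (SE, adjusted p = 0.00195). Both passed in every setting tried. Cyp2e1, a P450 known for ethanol oxidation, averaged 390.3 ± 94.95 against 99.6 ± 79.5 FPKM and rose by 2.37 ± 0.55 (SE, adjusted p = 0.0146). Lyz1, a lysozyme, averaged 80.2 ± 44.8 against 16.3 ± 10.7 FPKM and rose by 2.25 ± 0.51 (SE, adjusted p = 0.014), with knockout replicates 1 and 5 highest as for the B cell score. Prtn3, a protease of myeloid cells, averaged 5.84 ± 5.50 against 0.318 ± 0.181 FPKM and rose by 1.94 ± 0.48 (SE, adjusted p = 0.0199), and lost its call without floxed replicate 1 (0.0507). Cyp2e1 did not pass without the B-rich libraries (0.0547), and with the score as a term Cyp2e1 (0.22), Lyz1 (0.311) and Prtn3 (0.149) did not. Asns, asparagine synthetase, averaged 32.2 ± 6.60 against 19.4 ± 1.70 FPKM and rose by 0.69 ± 0.14 (SE, adjusted p = 0.00743). Sgk1, a kinase induced by glucocorticoids, averaged 23.1 ± 3.18 against 36.7 ± 6.05 FPKM (log2 difference -0.64 ± 0.14, adjusted p = 0.011).

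Floxed mice given mGIPR-Ab/P1 share their vehicle controls with this comparison, so only their levels are set beside it. Tph2 was at 0.345, 8.66, 6.59, 1.33 and 1.40 FPKM in conjugate replicates 1 to 5, of which 1 library was above the highest knockout and all were below the lowest floxed library. Lss averaged 5.67 ± 2.20 FPKM in conjugate fat, beside 5.37 ± 0.969 in knockout and 14.04 ± 1.55 in floxed vehicle fat. Nnat averaged 1550.1 ± 382 FPKM, beside 1479.6 ± 298 and 541 ± 142. Trem2 was at 3.92, 30.1, 19.7, 9.24 and 11.01 FPKM in conjugate replicates 1 to 5, a range that reached into both other groups. Fos averaged 6.39 ± 1.62 FPKM, beside 2.59 ± 1.004 in knockout and 6.56 ± 1.78 in floxed vehicle fat.

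Fat of the other knockout line, Glp1rWnt1-/- against Glp1rfl/fl, both given vehicle and 5 libraries each, gave no call by limma among 12686 genes (0%), with 593 at an unadjusted p under 0.05 (4.67%). Of 1530 genes called here and tested in both lines, 1299 had the same sign in that line and none was called in it. The share with the same sign over all genes was not counted, so the 1299 has no background to be read against. The difference between the 2 knockout effects passed for 6 of 12541 genes (0.0478%), 2 with the effect here above that in the Glp1r line (0.0159%) and 4 below (0.0319%), with 1359 at an unadjusted p under 0.05, and for none without the B-rich libraries. Postn was the named gene among the 6. Its log2 difference was 0.17 ± 0.22 in the Glp1r line against -1.50 ± 0.22 here, a difference of -1.67 ± 0.32 (SE, adjusted p = 0.0425). C2 was at 0.56 ± 0.17 there and 1.58 ± 0.15 here, a difference of 1.01 ± 0.23 (SE, adjusted p = 0.0898), which did not pass. Without 1 library the count was 1 or 2 for any of knockout replicates 1, 2, 4 or 5, floxed replicates 1, 3, 4 or 5, Glp1rWnt1-/- replicates 4 or 5 and Glp1rfl/fl replicates 1 or 3. It was 11 without Glp1rWnt1-/- replicate 1, 17 without floxed replicate 2 and 55 without knockout replicate 3.

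Vehicle-treated liver of the same genotypes, normalized in a table of its own and with 5 libraries in each group, gave 1160 calls among 11201 genes (10.4%). The knockout effect differed between fat and liver for 1050 of 10236 genes (10.3%), 927 with the fat effect above the liver effect (9.06%) and 123 below (1.2%). With median-of-ratios scaling the count was 570, with 250 above and 320 below. Of 1089 fat calls tested in both tissues, 640 had the same sign in liver, again with no share over all genes counted. Of the 1089, 136 were called in liver in the same direction and 58 in the opposite one. Plin2 (liver -1.36 ± 0.16, fat -1.21 ± 0.23), Vldlr (liver -1.02 ± 0.09, fat -1.07 ± 0.24) and Sult1e1 (liver 2.37 ± 0.36, fat 2.10 ± 0.23) passed in both tissues and the difference did not pass. Knockout and floxed liver averaged 0.507 and 2.03 FPKM for Vldlr and 7.03 and 0.299 FPKM for Sult1e1. At such levels the fold change understates differences, so like log2 values do not show like ratios of FPKM in the 2 tissues. Gpx3 passed in opposite directions, at -0.61 ± 0.17 in liver and 1.56 ± 0.22 in fat, a difference of 2.17 ± 0.28 (SE, adjusted p = 2.02e-05). Its level in liver was low, at 2.47 FPKM in knockout and 4.34 FPKM in floxed libraries. Me1 was lower in both and more so in liver, at -2.72 ± 0.31, a difference of 1.48 ± 0.41 (SE, adjusted p = 0.0187). Fabp5 was at 0.34 ± 0.32 in liver, a difference of -1.72 ± 0.41 (SE, adjusted p = 0.00747).

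**Figure D5:**
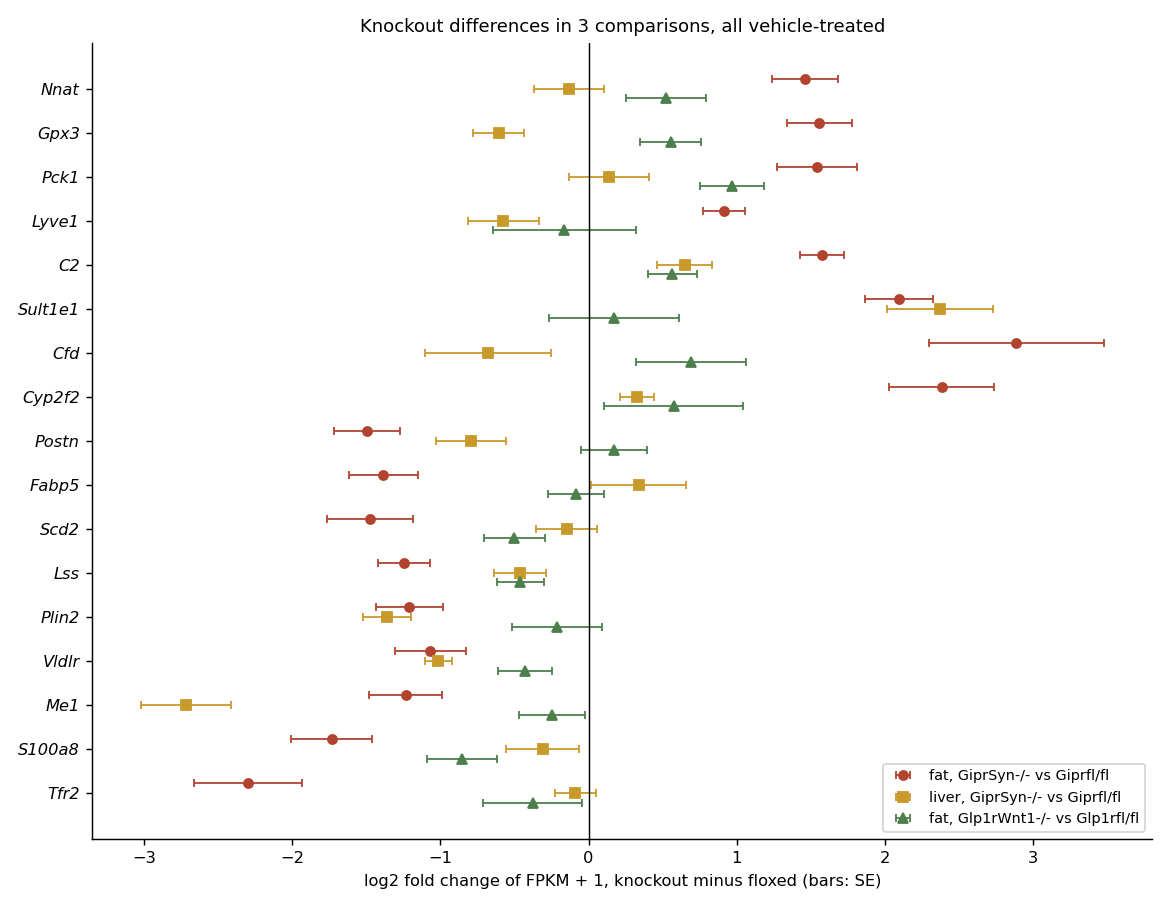
Log2 fold change (FPKM + 1, knockout minus floxed) with its SE for 17 genes in 3 comparisons of vehicle-treated mice: fat of the Gipr line (circles), liver of the Gipr line (squares) and fat of the Glp1r line (triangles). Gpx3 lies to the right of 0 in fat and to the left in liver of the Gipr line, and Plin2 and Vldlr lie to the left in both. Fold changes are understated at low FPKM, as for Vldlr, Sult1e1 and Gpx3 in liver.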

How the data were processed

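Inguinal fat of vehicle-treated GiprSyn-/- and Giprfl/fl mice was compared with 5 libraries in each group, and liver and fat of the Glp1r line served for comparison. Per the labels' protocols, libraries were made with the TruSeq Stranded mRNA kit and sequenced on a NovaSeq X. The authors deposited FPKM values per gene symbol, in a separate table for each line and tissue. RSEM is named in the submitters' processing notes; its version is not given in the sources used here, nor are the aligner and the genome build. All columns of per-sample values matched a labelled sample.

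Values were taken as log2(FPKM + 1), and genes with at least 1 FPKM in at least 5 of the 15 libraries were kept. limma 3.58.1 in R 4.3.3 was fitted with a trended empirical Bayes prior over all 15 libraries of the table, and p-values were adjusted by Benjamini-Hochberg over all genes tested. A gene was called at an adjusted p under 0.05, two-sided. Differences between lines and between tissues were interaction terms over 30 libraries, each knockout set against controls of its own table. Each library's score averages log2(FPKM + 1) across the genes of one list, and groups were compared with an exact permutation test over 252 assignments. Other lists are described by counts and medians. The fitting steps were tested on simulated data. Python 3.11.15 was used for tables and figures.

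The members and the gene lists were chosen with earlier results of these data known. Named genes were Gipr, Glp1r, Syn1 and Dpp4, the 10 largest rises and 10 largest falls among called genes whose groups did not overlap and whose higher mean was at least 5 FPKM (unnamed gene models and antigen receptor segments left out), and, in every list, at most 4 called genes by size of change, or at most 2 by p where none was called. A few genes under this rule are not reported here. Depth was estimated, since the values used are not counts, from the steps between low FPKM values of transcripts of 1500 to 6000 bases, less 200 bases, with a tolerance of 5%. Alternatives were other pseudocounts, filters, scalings and fits, the B cell score as a term, and the removal of single libraries.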

Additional observations from a re-analysis of the deposited data

Results flagged for a closer look

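Single libraries stood apart from the rest of their group in 16 of 200 groups of 5 examined, by a gap to the nearest library that exceeded 0.71 of the group's range. Chance would give this in about 5% of groups. Floxed replicate 2 accounted for most of them. It had 47.7 FPKM of Cd79a, 7.98 FPKM of Marco, 23.1 FPKM of Cd209b, 10.3 FPKM of Timd4 and 21.7 FPKM of Cxcl13, each the highest among floxed libraries. Its scores stood apart too, at 4.25 for B cells, 3.95 for T cells, 3.26 for lymph node stroma and 6.15 for MHC class II, and at 4.62 for mural cells, the lowest of its group. The other libraries that stood apart were floxed replicate 1 for Dpp4 (5.83 FPKM, low), floxed replicate 3 for Pck1 (465.6 FPKM, high), knockout replicate 2 for Hcar1 (40.4 FPKM, high), knockout replicate 4 for Elovl3 (0.913 FPKM, high) and for the mammary and skin epithelium score (1.54), and knockout replicate 1 for the neutrophil and mast cell score (3.42).

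The knockout effect of Postn differed between the 2 lines in fat, by -1.67 on the log2 scale (limma interaction, adjusted p = 0.0425). Between fat and liver of the Gipr line, the knockout effect differed for 10.3% of all genes tested in both. Most genes described in the text were named for a change in fat, so their share is not comparable with that. Of the 63 genes described in the text and tested in both tissues, the knockout effect differed for 24. It is given here as the fat effect minus the liver effect in log2 units (limma interaction term). It was more positive in fat for Dpp4 (1.04), Cd79a (3.29), Jchain (2.94), Cfd (3.57), Nnat (1.60), Adrb3 (1.998), Pde3b (0.56), Pck1 (1.40), Gpx3 (2.17), Sod1 (0.99), Me1 (1.48), Aldh6a1 (0.74), Lyve1 (1.49), C2 (0.93), Cyp2f2 (2.06) and Cyp2e1 (2.01). It was more negative in fat for Scd2 (-1.33), Lss (-0.78), Fabp5 (-1.72), Elovl3 (-1.82), Atp6v0d2 (-2.04), Trem2 (-1.60), S100a8 (-1.42) and Tfr2 (-2.21). Several of the 24 were low in liver, where the fold change understates differences. Knockout and floxed liver means were 0.618 and 1.79 FPKM for Trem2, 0.559 and 1.36 for Atp6v0d2, 1.13 and 1.82 for S100a8 and 1.75 and 1.92 for Scd2. Of those more positive in fat, liver means were 0.838 and 1.03 FPKM for Nnat, 1.23 and 1.23 for Cd79a and 1.86 and 1.64 for Jchain. They were 2.37 and 4.85 FPKM for Cfd, 2.97 and 1.54 for Adrb3 and 2.47 and 4.34 for Gpx3. Atp6v0d2 also passed as lower in liver (limma, adjusted p = 0.0141).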

How the results depend on the processing

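Of the 120 called genes among 139 named, 22 passed in every setting tried and none reversed. The count of 1670 genes was 1062 with a filter of 5 FPKM, 3723 with array weights, 251 with the B cell score as a term, 755 without the B-rich libraries, 977 without the libraries of the higher number series in the labels, 890 at 1.5-fold or more, and 712 to 2117 with 1 library left out; fewer samples or genes enter several of these, and otherwise the cause was not tested. In fat the higher number series held knockout replicate 5, the deepest library, and conjugate replicate 5, and no floxed vehicle library. The difference between lines gave 6 genes as reported, 3 with median-of-ratios scaling, 0 without the B-rich libraries and 1 to 55 with 1 library left out. The difference between tissues gave 570 genes with median-of-ratios scaling against 1050. With the replicate number as a block (replicate block), 2253 genes passed in fat, 15 in the difference between lines and 1439 in that between tissues. The numbers do not pair the samples: deviations of same-numbered libraries correlated at -0.57, -0.57, 0.49, 0.29 and 0.18, with 3 of 5 knockouts closest to their own number. Depth limits genes at low FPKM, and 5 libraries in a group limit the rest.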

Other observations

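Of 12 genes of the unfolded protein response 3 rose and 1 fell, against 6.61% and 5.67% of all genes. Of these 2 rose and 1 fell without the B-rich libraries, 1 rose and none fell with the B cell score as a term, and 1 rise was left without floxed replicate 1. Among 12 glucocorticoid response genes 1 rose and 2 fell, against the same 6.61% and 5.67%. There was 1 fall and no rise both without the B-rich libraries and with the score as a term. Among 14 genes of insulin and Foxo response 1 rose and 1 fell, near the share of all genes, and none passed in either of those fits. No heat shock gene of 10 passed by limma (0 at an unadjusted p under 0.05), and 1 of 15 ribosome biogenesis genes rose, against 6.61% of all genes. Of 10 MHC class II genes, which B cells and macrophages express, 2 rose, against 6.61% of all genes. None rose without any 1 of knockout replicates 1, 2 or 5 or floxed replicates 1, 3, 4 or 5. Of 13 adipogenic transcription factors 2 rose, against 6.61% of all genes, and none did under median-of-ratios scaling or without the B-rich libraries. None of 9 skeletal muscle genes and none of 5 erythrocyte genes passed by limma (1 and 0 at an unadjusted p under 0.05).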
